A study of Mus musculus with 7 samples.

Results

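Afp, H19, Igf2, Gpc3, Golm1, Cd24a and Tff3 are described here in every liver library of the series. These 7 genes are used as markers of liver tumours, of the fetal liver or of both, and were taken by gene name from the deposited expression table, which lists 27810 genes; all 7 were listed. The study asked how mesenchymal stromal cells (MSCs) act in mice with diet-induced steatohepatitis (NASH), and RNA of whole liver tissue was sequenced in 7 libraries. All groups shared the strain, sex and diet: wild-type male C57BL/6j mice were put at 5 weeks of age on a diet of 40% fat, 20% fructose and 2% cholesterol (WD). After 32 weeks on it they were injected 1 time into the tail vein, and tissue was collected after 40 weeks. The MSC group (replicates 0, 1 and 2) was given human umbilical cord MSCs. A single library, vehicle replicate 6, was given PBS and has the word Cancer in its label, with no statement of what the word refers to; it is called the Cancer-labelled library. The vehicle group (replicates 1, 3 and 4) was given PBS. No diet-free or healthy liver was analysed here, so every level is one of a liver on the WD. The labels do not state that each library came from its own animal, and p-values therefore measure the spread between these libraries.

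Fetal hepatocytes express a set of secreted and growth-promoting products that adult hepatocytes switch off, and some of these return in hepatocellular carcinoma. Afp encodes alpha-fetoprotein, the fetal relative of albumin and the classical serum marker of this tumour. H19 and Igf2 are neighbouring imprinted genes, a long noncoding RNA made from the maternal copy and a fetal growth factor made from the paternal copy, which share enhancers. Gpc3 encodes a heparan sulphate proteoglycan anchored to the cell surface, and Golm1 encodes the Golgi membrane protein GP73; both are human liver cancer markers. Cd24a encodes a small, heavily glycosylated surface protein found on progenitor and bile duct cells, and Tff3 encodes a trefoil peptide secreted by mucus-producing epithelia.

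The markers lie on 6 chromosomes of GRCm38, with coordinates as in the deposited table. Afp (ENSMUSG00000054932) is at chr5:90490737-90508907 on the plus strand, H19 (ENSMUSG00000000031) at chr7:142575529-142578143 and Igf2 (ENSMUSG00000048583) at chr7:142650766-142666816, both on the minus strand and 72.6 kb apart. Gpc3 (ENSMUSG00000055653) is at chrX:52272426-52613950 on the minus strand, Golm1 (ENSMUSG00000021556) at chr13:59634626-59675811 on the minus strand, Cd24a (ENSMUSG00000047139) at chr10:43578284-43584265 on the plus strand and Tff3 (ENSMUSG00000024029) at chr17:31125306-31129646 on the minus strand. GENCODE gives H19 as a long intergenic noncoding RNA and the other 6 as protein-coding genes. Promoter sequences were taken from RefSeq (GRCm38.p6, 250 bases before to 50 after a gene's start), which matched 4 of the 7 markers: Afp, Igf2, Golm1 and Gpc3. Those of Afp, the marker that defines the class, and of Golm1 are shown because Golm1 was at its highest in the Cancer-labelled library and Afp was not. The Afp window is chr5:90490464-90490763 on the plus strand and the Golm1 window chr13:59675735-59676034 on the minus strand. Capitals mark matches to 5 motifs. The TATA box was searched as TATAAA on the given strand. On both strands, HNF1 family sites were searched as GTTAAT and in a second form as GTTAAC. The CCAAT box, which reads ATTGG on the other strand, and the GC box, searched as GGGCGG and reading CCGCCC on the other strand, were searched on both strands too. Each sequence runs 5′ to 3′ along its gene.
Afp promoter: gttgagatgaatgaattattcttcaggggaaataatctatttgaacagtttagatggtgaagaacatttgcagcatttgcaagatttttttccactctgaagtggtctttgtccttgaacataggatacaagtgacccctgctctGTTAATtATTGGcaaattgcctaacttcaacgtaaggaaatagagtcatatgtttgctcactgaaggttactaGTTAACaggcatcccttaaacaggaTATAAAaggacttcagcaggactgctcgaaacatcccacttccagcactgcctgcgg
Golm1 promoter: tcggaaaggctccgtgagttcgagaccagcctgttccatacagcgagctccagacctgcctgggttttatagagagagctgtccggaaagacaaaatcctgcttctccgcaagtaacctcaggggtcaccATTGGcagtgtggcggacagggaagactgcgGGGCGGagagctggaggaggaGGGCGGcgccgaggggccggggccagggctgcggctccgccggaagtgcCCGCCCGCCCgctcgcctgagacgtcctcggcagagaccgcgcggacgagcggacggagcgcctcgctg

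The windows differed in base composition and in motifs. The Afp window held 40% G and C with 3 CpG dinucleotides, and the Golm1 window 67% with 30, against medians of 52.7% and 7 over 32851 RefSeq promoter windows. Afp held 1 TATA box, which began 30 bases before the deposited start. It also held 1 match to each form of the HNF1 site, 128 and 55 bases before that start, and 1 CCAAT box, 121 bases before it. The RefSeq start that sets the window differs from the deposited one. From the RefSeq start, the TATA box began at -7, the HNF1 sites at -105 and -32 and the CCAAT box at -98. Golm1 held 4 GC boxes, of which 2 overlap in a single stretch, and 1 CCAAT box. The Gpc3 window, not shown, resembled that of Golm1, with 70.7% G and C, 30 CpG dinucleotides, 4 GC boxes, 1 CCAAT box and no TATA box. Gpc3, like Afp, was not highest in the Cancer-labelled library, and a link between window and level was not tested. Of all windows, 8.32% held the TATA box, 7.10% and 3.05% the forms of the HNF1 site, 37.4% the CCAAT box and 35.7% the GC box. A match describes letters in the window and does not show that a factor binds there.

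H19 is also the primary transcript of miR-675. Its 2 mature arms are shown because H19 was the noncoding member that was high in the Cancer-labelled library; RefSeq places them at chr7:142577112-142577133 (5p) and chr7:142577078-142577099 (3p) on the minus strand, inside H19. Capitals mark the seed, bases 2 to 8, and the 2 seeds differ. Mir675 has a row of its own in the table, at 0.0140 FPKM or less in every library, and mature miRNA was not measured.
mmu-miR-675-5p: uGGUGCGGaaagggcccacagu
mmu-miR-675-3p: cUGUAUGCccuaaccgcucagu

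Expression was deposited as FPKM, fragments of a gene scaled by its length and by the library's size, so that levels can be set beside each other across genes. Read counts could not be recovered from these values and the depth of each library is unknown, so no counting error is given. Between 9655 and 12041 genes reached 1 FPKM in a library, the most in the Cancer-labelled one. Mitochondrially encoded genes took 36.4% of the summed FPKM in MSC replicate 1 and 16.5% to 23.3% in the others. The labelled tissue was checked with 8 hepatocyte markers: all were present in every library, and Alb, which encodes albumin, measured 16331 to 28892 FPKM in MSC libraries, 21089 FPKM in the Cancer-labelled library and 12350 to 21069 FPKM in vehicle libraries.

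The 7 markers covered a wide range of levels. Tff3 and Cd24a exceeded 1 FPKM in all 7 libraries, H19 in 4, Golm1 in 2 and Gpc3 in 1. Afp and Igf2 did so in none. Summed over the markers, the level was 14.6 to 21.4 FPKM in the MSC libraries, 195 FPKM in the Cancer-labelled library and 10.8 to 18.7 FPKM in the vehicle libraries.

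**Figure D1:**
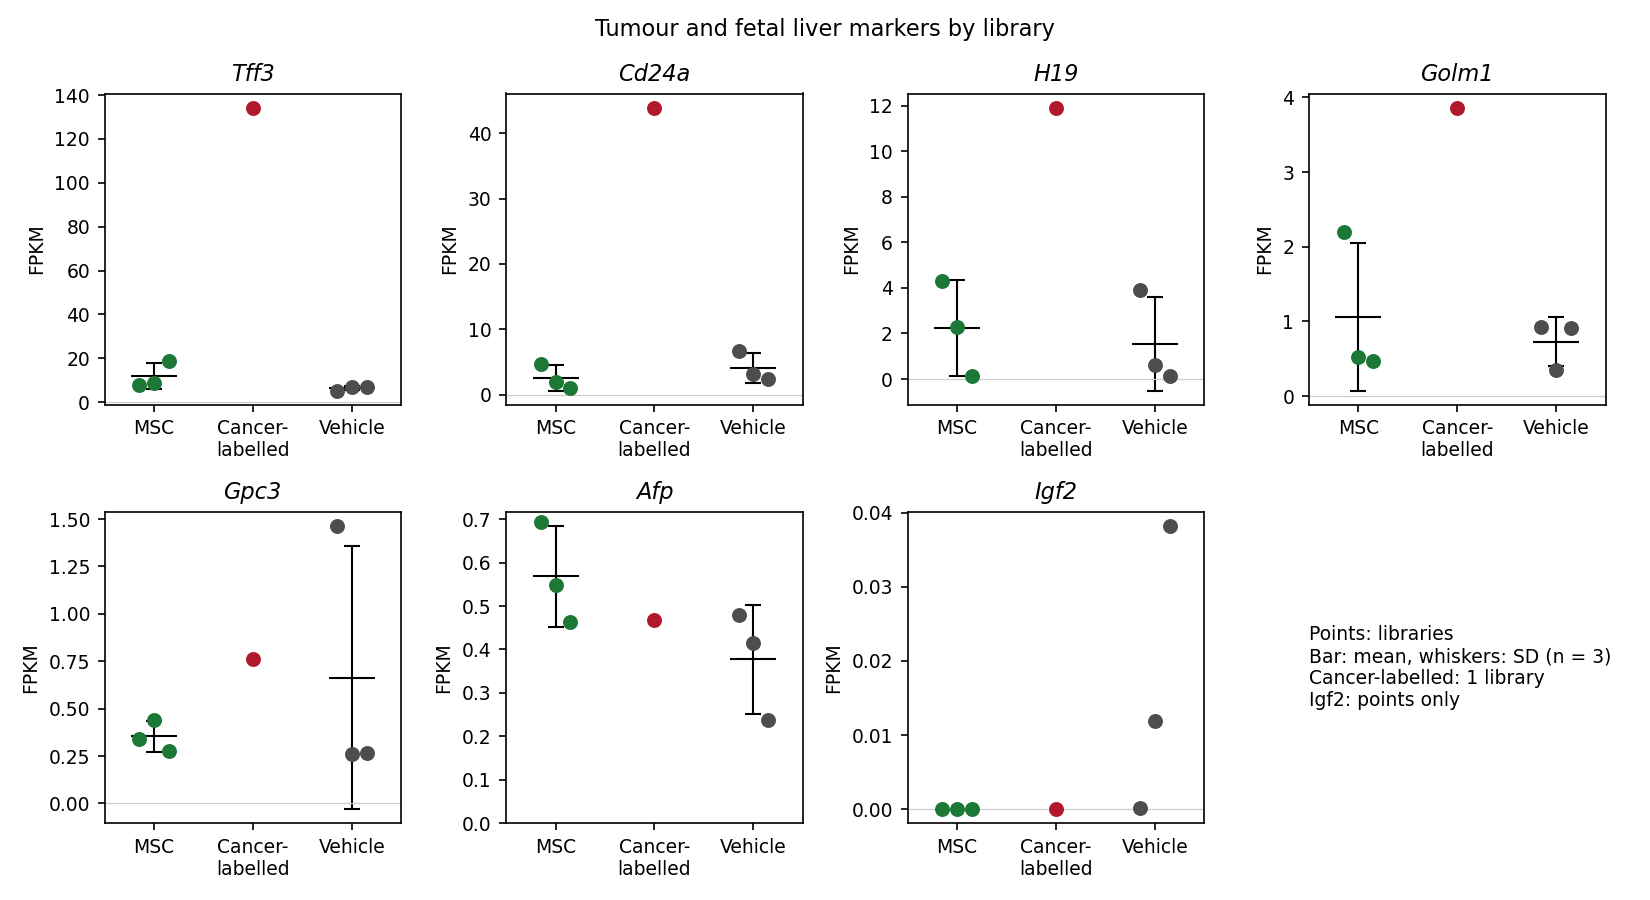
Level of each marker in FPKM (vertical axes, linear, each panel on its own scale) in the 3 MSC libraries, the Cancer-labelled library and the 3 vehicle libraries. Points are libraries, horizontal bars are means and whiskers are SD (n = 3); no mean is drawn for Igf2, which is listed at 0 in 4 libraries. Tff3, Cd24a, H19 and Golm1 are highest in the Cancer-labelled library (134, 43.9, 11.9 and 3.86 FPKM), while Gpc3, Afp and Igf2 are not.

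The fetal serum protein was near the bottom of the range everywhere. Afp measured 0.694, 0.549 and 0.463 FPKM in MSC replicates 0, 1 and 2, 0.468 FPKM in the Cancer-labelled library and 0.479, 0.415 and 0.238 FPKM in vehicle replicates 1, 3 and 4. The Cancer-labelled library lay in the middle, below 2 MSC libraries and 1 vehicle library, and the MSC and vehicle values overlapped. Afp averaged 0.568 ± 0.117 FPKM in MSC and 0.377 ± 0.125 FPKM in vehicle libraries (SD, n = 3 each; exact two-sided permutation test on log2 values, p = 0.2, with 0.1 the smallest value that 3 against 3 libraries allow). An antisense gene, Gm43449, overlaps Afp and measured 0 to 1.78 FPKM; the sources used here do not state whether counting used strand, so reads of the pair cannot be told apart.

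H19 was measured well above 0 in most libraries, and its imprinted neighbour Igf2 was at or next to 0 in all of them. H19 measured 4.31, 2.27 and 0.127 FPKM in MSC replicates 0, 1 and 2, 11.9 FPKM in the Cancer-labelled library and 3.92, 0.606 and 0.145 FPKM in vehicle replicates 1, 3 and 4. It was highest in the Cancer-labelled library, and it spread widely inside both groups, with MSC replicate 0 and vehicle replicate 1 high and MSC replicate 2 and vehicle replicate 4 low. Igf2 was listed at 0 in the 3 MSC libraries and in the Cancer-labelled library, and at 0.000167, 0.0119 and 0.0382 FPKM in vehicle replicates 1, 3 and 4. All Igf2 values lay far below 1 FPKM, so the lack of overlap between MSC and vehicle libraries (exact permutation p = 0.1, the smallest possible) rests on values close to 0. Gm49394, a gene model that overlaps Igf2 on the same strand, measured 0.0252 to 0.129 FPKM in MSC libraries, 0.254 FPKM in the Cancer-labelled library and 0.0164 to 0.0680 FPKM in vehicle libraries; reads of the 2 models can be divided between them, so the Igf2 value is uncertain.

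The 2 human cancer markers at the cell surface and in the Golgi were low. Gpc3 measured 0.342, 0.441 and 0.278 FPKM in MSC replicates 0, 1 and 2, 0.761 FPKM in the Cancer-labelled library and 1.46, 0.260 and 0.266 FPKM in vehicle replicates 1, 3 and 4. Vehicle replicate 1 was highest and the Cancer-labelled library second. Golm1 measured 2.2, 0.518 and 0.467 FPKM in MSC replicates 0, 1 and 2, 3.86 FPKM in the Cancer-labelled library and 0.921, 0.354 and 0.916 FPKM in vehicle replicates 1, 3 and 4. The Cancer-labelled library was highest and MSC replicate 0 second, and the other 5 libraries stayed below 1 FPKM. Golm1 meets Naa35 on the opposite strand at its end, and Naa35 measured 2.03 to 2.44 FPKM in MSC libraries, 3.09 FPKM in the Cancer-labelled library and 2.08 to 2.95 FPKM in vehicle libraries.

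The 2 epithelial markers had the highest means in both groups and the highest levels in the Cancer-labelled library. Cd24a measured 4.75, 1.91 and 1.07 FPKM in MSC replicates 0, 1 and 2, 43.9 FPKM in the Cancer-labelled library and 6.65, 3.11 and 2.40 FPKM in vehicle replicates 1, 3 and 4. Tff3 measured 7.98, 8.95 and 18.97 FPKM in MSC replicates 0, 1 and 2, 134 FPKM in the Cancer-labelled library and 5.31, 7.05 and 6.82 FPKM in vehicle replicates 1, 3 and 4. Both stood far higher in the Cancer-labelled library than anywhere else. MSC and vehicle libraries overlapped for Cd24a but not for Tff3, for which each MSC library was above each vehicle library. Neither gene overlaps another gene in GENCODE.

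None of the markers passed the test between MSC-injected and vehicle-injected livers. Of the 7, 3 reached 1 FPKM in at least 3 of the 6 libraries and were tested with limma on log2(FPKM + 1), a scale that understates changes of low genes. Of these 3, 0 had an adjusted p under 0.05 (Benjamini-Hochberg over all 10534 genes tested), where 0.0190% of all tested genes (2 genes) did. At an unadjusted p under 0.05 limma counted 1 of the 3, Tff3, against 5.59% of all tested genes. Tff3 averaged 11.97 ± 6.09 FPKM in MSC and 6.39 ± 0.945 FPKM in vehicle libraries (SD, n = 3 each), a log2 difference of 0.72 ± 0.30 (SE; limma adjusted p = 0.822; exact permutation p = 0.1, the smallest possible). MSC replicate 2 carried much of it, and without that library the Tff3 difference was 0.36. Over all listed genes, 2.21% had all MSC values above all vehicle values, as Tff3 did, and 5.21% had all of them below, as Igf2 did. Cd24a averaged 2.58 ± 1.93 FPKM in MSC and 4.06 ± 2.28 FPKM in vehicle libraries (SD, n = 3 each), a log2 difference of -0.54 ± 0.41 (SE; limma adjusted p = 0.995). H19 averaged 2.24 ± 2.09 FPKM in MSC and 1.56 ± 2.06 FPKM in vehicle libraries (SD, n = 3 each), a log2 difference of 0.37 ± 0.65 (SE; limma adjusted p = 0.995). For H19 the sign turned without vehicle replicate 4 (-0.06) and without MSC replicate 0 (-0.12), so the groups did not differ beyond the spread inside them. Golm1, Gpc3 and Afp did not reach the filter, and their exact permutation p ranged from 0.2 to 1.0.

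The Cancer-labelled library differed from the vehicle libraries in Tff3 and Cd24a. Tff3, the trefoil peptide, was 21-fold the vehicle mean and 7.08-fold the highest of the other 6 libraries, a log2 difference of 4.20 ± 0.42 (SE; limma adjusted p = 0.00230). Cd24a was 10.8-fold the vehicle mean and 6.60-fold the highest other library, a log2 difference of 3.24 ± 0.58 (SE; limma adjusted p = 0.0205). These 2 were the markers called among the 4 tested, where 4.17% of all 12265 tested genes were called (3.98% higher and 0.188% lower). All 4 tested markers had an unadjusted p under 0.05, as did 17.2% of all tested genes. The group is 1 library with no spread of its own. In the test it was assumed to vary as the MSC and vehicle libraries do, and the values compare this library with the others rather than a condition. In bulk tissue, more cells of a type cannot be told apart from more RNA per cell, nor fewer cells from less RNA per cell.

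H19 and Golm1 were also at their highest in the Cancer-labelled library and did not pass. H19 was 7.65-fold the vehicle mean and 2.76-fold the highest other library (log2 difference 2.63 ± 0.91, SE; limma adjusted p = 0.184). Golm1 was 5.29-fold the vehicle mean and 1.76-fold the highest other library (log2 difference 1.51 ± 0.43, SE; limma adjusted p = 0.112), and it entered the test only through the Cancer-labelled library itself. The 4 markers at the top in this library are to be read against the whole table, in which 36.0% of all listed genes, and 40.0% of the genes with 1 FPKM in 3 of the other 6 libraries, were highest there. The median log2 difference was 0.25 over all 12265 tested genes and 0.19 over those that passed the filter on the other 6 libraries. The differences of Tff3, Cd24a, H19 and Golm1 exceeded both medians. These 4 are named here for being highest in this library, so that is no support. Gpc3 differed by 0.16, Afp by 0.10 and Igf2 by -0.02 on the same scale, inside the range of the other libraries or listed at 0.

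**Figure D2:**
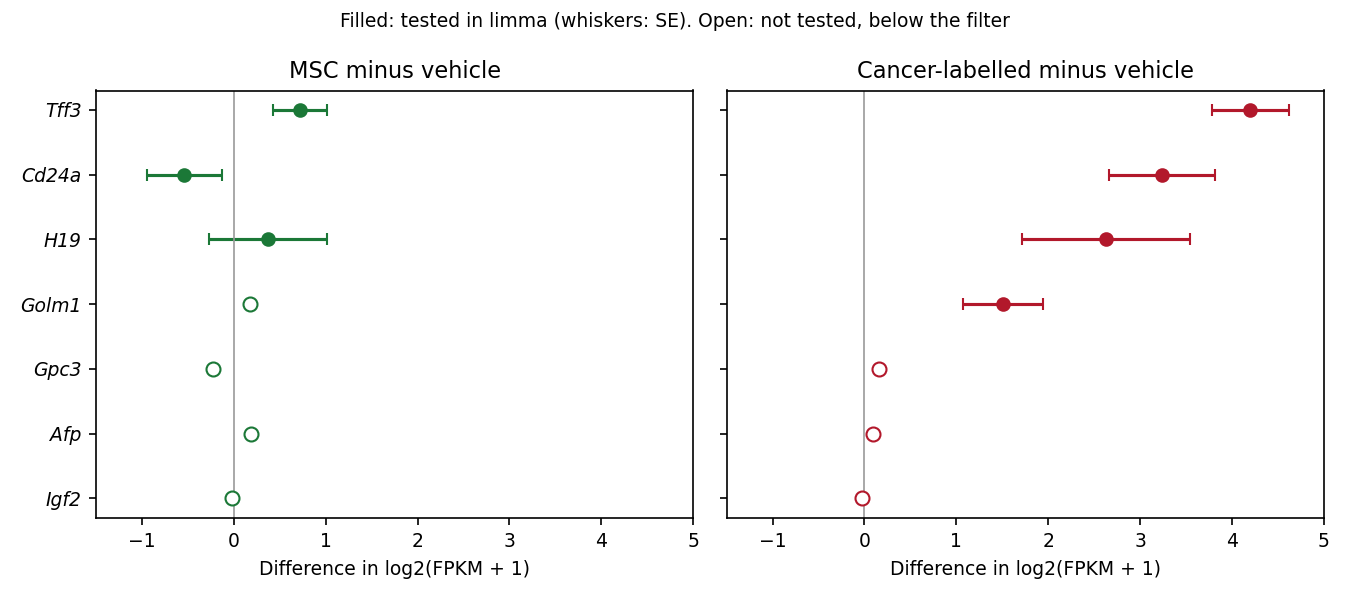
Difference of each marker in log2(FPKM + 1), MSC minus vehicle at left and Cancer-labelled minus vehicle at right. Filled points with SE whiskers were tested in limma, and open points fell below the filter. At left all points lie between -0.54 and 0.72, and at right Tff3 (4.20) and Cd24a (3.24) are the markers called.

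The call of Cd24a depended on settings that the call of Tff3 did not depend on. Tff3 stayed under the threshold in all 20 alternatives (limma adjusted p from 0.000173 to 0.0294). The adjusted p of Cd24a exceeded it with a pseudocount of 0.1 (0.122), with no filter on low values (0.0628), without vehicle replicate 4 (0.0525) and with the filter applied to the other 6 libraries alone (0.0732). Without MSC replicate 0 and vehicle replicate 1, the 2 libraries in which H19 and Cd24a were highest among the 6, all 4 tested markers were called: H19 at an adjusted p of 0.0438, Golm1 at 0.0237, Cd24a at 0.00646 and Tff3 at 0.0109 in limma. Leaving out the libraries in which H19 and Cd24a were highest lowers the vehicle level and the spread by construction, and Golm1 entered the test through the Cancer-labelled library, so the calls gained are no support.

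Among the 6 MSC and vehicle libraries, Cd24a and H19 did not follow the groups. Cd24a ran from vehicle replicate 1 at the top through MSC replicate 0 to MSC replicate 2 at the bottom, and H19 had the same libraries at the ends except that MSC replicate 0 led. Pearson's r of log2(FPKM + 1) between H19 and Cd24a was 0.86 over 7 libraries and 0.75 over 6 without the Cancer-labelled one. Between Cd24a and Tff3, r was 0.73 over 7 libraries and -0.81 over 6, so the positive value over 7 rests on the Cancer-labelled library. Of the 6 libraries, vehicle replicate 1 and MSC replicate 0 also had the most genes at 1 FPKM (10931 and 10841). MSC replicate 2 had the fewest (9655), and a link of this to the order of H19 and Cd24a was not tested. All markers of a library share its scaling, and these values are descriptions of a few libraries.

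For each marker with a mean of at least 0.1 FPKM, the 2 genes with the most similar pattern over the 7 libraries were taken from 9514 candidates. For Cd24a these were Kif3a, a kinesin motor subunit of cilium assembly (r = 0.998 over 7 libraries, 0.99 over 6), and Map3k1, a stress kinase (0.99 and 0.97). For H19 they were Zfp704 and Rbm28 (0.996 and 0.993 over 7), and for Golm1 Neurl3 and Birc3 (0.99 each over 7). Tff3 was followed by Bex3 and Rn7s1 (0.97 and 0.95), which fell to 0.72 and 0.57 over 6 libraries. Afp was followed by Tmed3 and Maff (0.98 and 0.97), and Gpc3 by Cpped1 and Mitd1 (0.97 each). With so many candidates and so few libraries, values this high describe a ranking.

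Genes in the pathways of the markers were counted from lists, and in MSC against vehicle livers 0 genes were called in every list (limma adjusted p under 0.05). At an unadjusted p under 0.05, where 5.59% of all tested genes passed, limma counted 2 of 15 tested genes in the list around Afp. It counted 4 of 5 in the erythroid list (median log2 difference -1.82, MSC minus vehicle) and 0 in each other list. The 4 were globin genes whose levels moved together, so they are not separate results. The mean log2(FPKM + 1) of the erythroid list overlapped between the groups. It was 4.43 in MSC replicate 0 and 4.42, 5.98 and 5.46 in vehicle replicates 1, 3 and 4. In the Cancer-labelled library, Afp's relatives and regulators had 2 of 15 tested genes called higher and 0 lower (median log2 difference 0.05, against 0.25 over all tested genes). Trp53, which encodes p53, measured 7.59 FPKM in the Cancer-labelled library and 2.78 ± 0.268 FPKM in vehicle libraries (SD, n = 3; limma adjusted p = 0.0328), and its call was lost under 7 of 20 alternatives. Zhx2 and Zbtb20, which repress Afp after birth in mice, measured 3.91 and 5.10 FPKM in the Cancer-labelled library and 3.21 ± 0.552 and 3.78 ± 0.900 FPKM in vehicle libraries, and neither was called.

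The insulin-like growth factor list had 3 of 13 tested genes called higher, where 3.98% of all tested genes were, and 0 lower (median log2 difference 0.35, against 0.25 over all tested genes). Igf1r, the receptor for both growth factors, measured 1.41 FPKM in the Cancer-labelled library and 0.230 ± 0.0701 FPKM in vehicle libraries (SD, n = 3; limma adjusted p = 0.0254, lost under 6 of 18 alternatives that tested it), and it passed the filter only through the Cancer-labelled library. Among binding proteins that carry the growth factors, 2 were called higher: Igfbp2 at 283 FPKM in the Cancer-labelled library and 88.9 ± 23.9 FPKM in vehicle libraries (limma adjusted p = 0.0354), and Igfbp3 at 15.6 and 5.40 ± 1.12 FPKM (limma adjusted p = 0.0324; SD, n = 3 vehicle libraries). The calls of Igfbp2 and Igfbp3 were each lost under 10 of 20 alternatives. Of the wider imprinted network, 0 of 6 tested genes were called (2 at an unadjusted p under 0.05), and Dlk1, an imprinted fetal liver gene, stayed at 0.0411 FPKM or less in every library.

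Near relatives of Tff3 were low. Tff2, another trefoil peptide, measured 1.97 FPKM in the Cancer-labelled library and 0.156, 0 and 0 FPKM in vehicle replicates 1, 3 and 4 (limma adjusted p = 0.00641, lost under 1 of 18 alternatives that tested it). Muc1, a membrane mucin of epithelia, measured 6.16 FPKM in the Cancer-labelled library and 0.702 ± 0.252 FPKM in vehicle libraries (SD, n = 3; limma adjusted p = 0.0160, lost under 3 of 19). These were the 2 tested of 6 listed genes in the trefoil and mucin list, and both entered through the Cancer-labelled library. Of the 6, 5 were highest in that library, as were 36.0% of all listed genes. Muc2 and Muc13 were among the 5, at 0.169 and 0.373 FPKM there. The list set up for ligands of the CD24 protein held Siglecg, Selp and Cd22. Cd22 is also in the B cell list, and its binding to CD24 was not checked here. The list summed to 0.576 to 1.57 FPKM in MSC libraries, 1.18 FPKM in the Cancer-labelled library and 0.560 to 1.15 FPKM in vehicle libraries. Cd22 made up 0.488 FPKM of the sum in the Cancer-labelled library, and no gene of the list reached the filter. Among glypicans other than Gpc3, 0 of 2 tested were called, with Gpc4 at 12.5 FPKM in the Cancer-labelled library and 9.22 ± 0.943 FPKM in vehicle libraries. Among Golgi proteins beside Golm1, 0 of 7 tested were called (1 at an unadjusted p under 0.05), and its paralogue Casc4 measured 1.65 FPKM in the Cancer-labelled library and 0.957 ± 0.435 FPKM in vehicle libraries (SD, n = 3).

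Of 23 other oncofetal and liver tumour genes in the table, 12 were tested and 5 called higher in the Cancer-labelled library, where 3.98% of all tested genes were, with 0 lower (median log2 difference 1.47, against 0.25). Of those 12, 7 also passed the filter on the other 6 libraries, and 1 of these was called, where 144 of all 10534 such genes were: Tspan8, a tetraspanin of epithelial tumours, at 33.0 FPKM in the Cancer-labelled library and 2.23 ± 1.35 FPKM in vehicle libraries (SD, n = 3; limma adjusted p = 0.0356, lost under 8 of 20 alternatives). The other 4 were Mdk, the growth factor midkine (3.48 and 0.393 ± 0.269 FPKM; limma adjusted p = 0.00909), Bex1, Bex4 and Prom1. These 4 passed the filter only through the Cancer-labelled library. Of the 18 alternatives that tested them, 1 lost the call of Mdk, 2 each those of Bex1 and Bex4 and 5 that of Prom1. A filter of 5 FPKM and the filter on the other 6 libraries alone left these 4 genes out. The call of Tspan8 and the 144 come from the main fit, whose adjustment also covered genes that entered through the Cancer-labelled library. The median of 1.47 also covers genes that the filter let in through the Cancer-labelled library. The 7 genes that passed on the other 6 libraries had a median log2 difference of 1.16, against 0.19 over all such genes. The embryonic RNA-binding proteins Lin28a, Lin28b, Igf2bp1 and Igf2bp3 stayed at 0.0426 FPKM or less in every library. Of the proliferation list, Pcna alone was tested and was not called, and Mki67 measured 0.711 FPKM in the Cancer-labelled library and 0.182 to 0.755 FPKM in vehicle libraries.

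**Figure D3:**
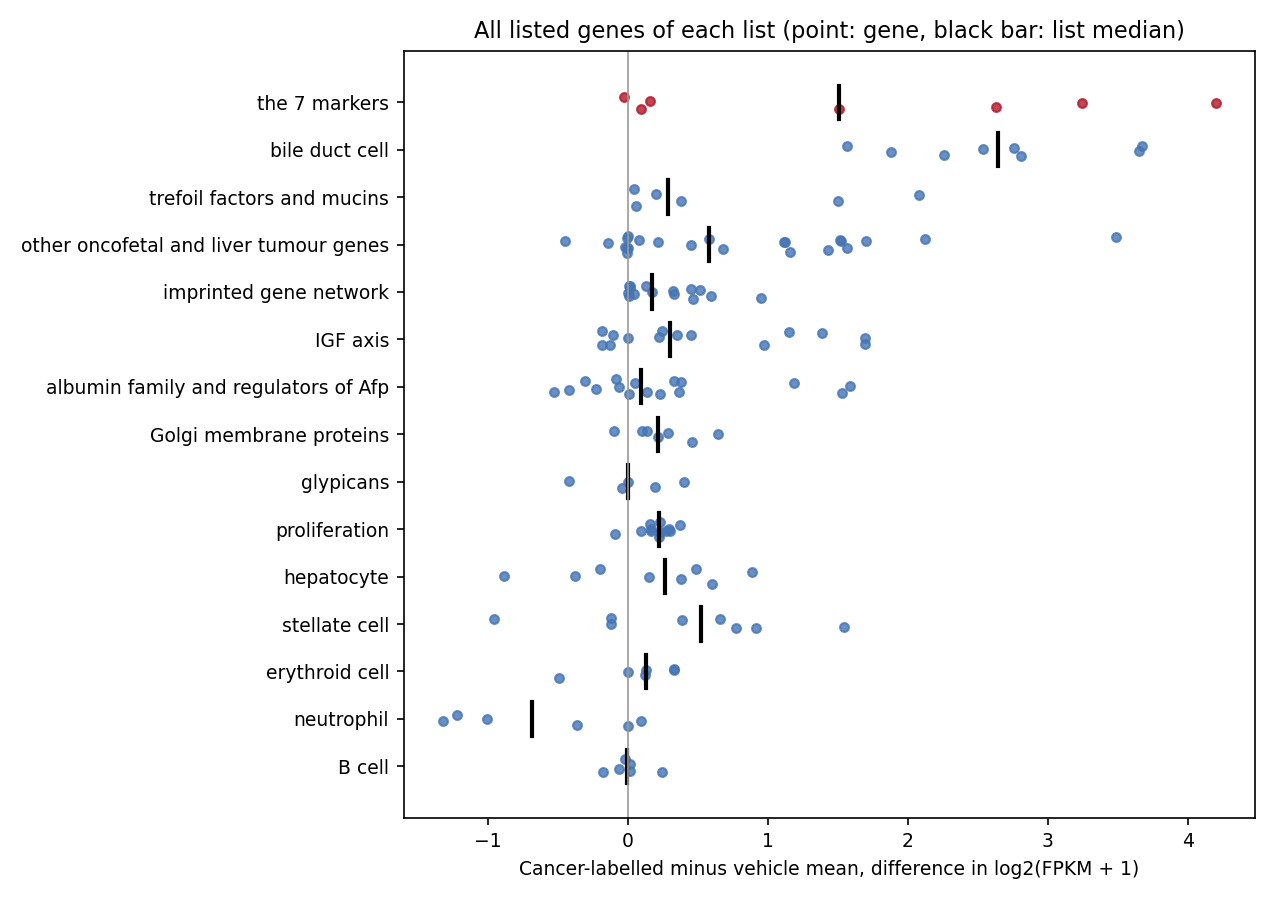
Difference between the Cancer-labelled library and the vehicle mean in log2(FPKM + 1) for every listed gene of the 7 markers and of 14 lists, genes below the filter included. Points are genes and black bars are list medians. Points of the bile duct list lie between 1.57 and 3.67, and the markers run from -0.02 (Igf2) to 4.20 (Tff3).

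Bile duct markers were high in the Cancer-labelled library too. The 8 genes of that list summed to 32.0 to 147 FPKM in MSC libraries, 540 FPKM in the Cancer-labelled library and 48.6 to 169 FPKM in vehicle libraries, and all 8 were highest in the Cancer-labelled library, as were 36.0% of all listed genes. Of the 8 tested, 6 were called higher, where 3.98% of all tested genes were, and 5 of these passed the filter only through that library. Of the 3 that passed on the other 6 libraries, Epcam was called, where 144 of all 10534 such genes were. Krt19, a keratin that defines bile duct cells, measured 24.4 FPKM in the Cancer-labelled library and 0.989 ± 0.120 FPKM in vehicle libraries (limma adjusted p = 0.000855), and Epcam, an adhesion protein of these cells, measured 21.6 and 2.45 ± 1.48 FPKM (limma adjusted p = 0.0163; SD, n = 3 vehicle libraries). The call of Epcam was lost under 3 of 20 alternatives. Both that call and the 144 come from the main fit, whose adjustment also covered genes that entered through the Cancer-labelled library. With the filter itself set on the other 6 libraries, far fewer genes were called. Krt7, Cldn4, Cldn7 and Sox9 were called too (limma adjusted p from 0.00162 to 0.00787), and no marker of the list was at 0 in any library. Among the other 6 libraries Cd24a and H19 were lowest where the bile duct mean was lowest, in MSC replicate 2, and Tff3 was highest there. That library also had the lowest mean log2(FPKM + 1) over all listed genes (1.10) and the fewest genes at 1 FPKM (9655). Vehicle replicate 4 had the next lowest bile duct mean (1.17). H19 was next lowest there, but Cd24a was not (2.40 FPKM, against 1.91 FPKM in MSC replicate 1). The part of bile duct cells in the levels of Tff3 and Cd24a was not tested.

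**Figure D4:**
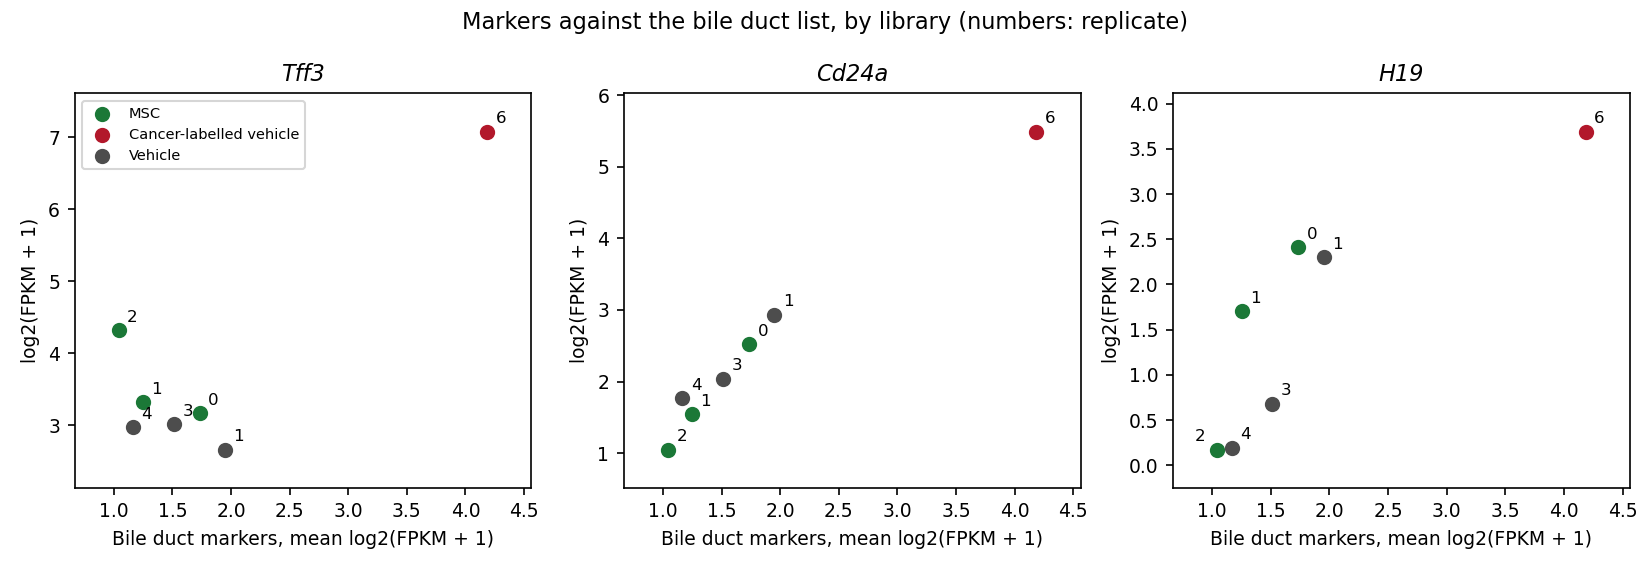
Level of Tff3, Cd24a and H19 in log2(FPKM + 1) against the mean log2(FPKM + 1) of the 8 bile duct markers, with 1 point per library numbered by replicate. In MSC replicate 2, which has the lowest bile duct mean (1.04), Cd24a and H19 are at their lowest and Tff3 is at its highest of the 6 MSC and vehicle libraries, and the Cancer-labelled library (4.18) lies apart in each panel. MSC replicate 2 also has the lowest mean over all listed genes (1.10).

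For the 7 other lists of cell type markers, the sum in the Cancer-labelled library lay within the range of the other 6 libraries. Hepatocyte markers summed to 25448 to 38969 FPKM in MSC libraries, 30906 FPKM in the Cancer-labelled library and 21114 to 29024 FPKM in vehicle libraries, with 0 of 8 called. Erythroid markers, which in fetal liver would come with blood formation, summed to 105 to 224 FPKM in MSC libraries, 563 FPKM in the Cancer-labelled library and 210 to 903 FPKM in vehicle libraries, with 0 of 5 tested called. Stellate cell markers summed to 52.0 to 89.8, 95.9 and 76.2 to 104 FPKM in the MSC, Cancer-labelled and vehicle libraries, with 0 of 8 called. Dcn made up most of that sum. Of the 8 stellate markers, 5 were highest in the Cancer-labelled library and 2 lowest, and 2 had an unadjusted p under 0.05 in limma, Acta2 higher and Reln lower. Their mean log2(FPKM + 1) was 1.98 to 2.74 in MSC libraries, 2.91 in the Cancer-labelled library and 2.35 to 2.84 in vehicle libraries. Their part in the levels of the markers was not tested. Neutrophil markers summed to 4.26 to 41.2 FPKM in MSC libraries, 6.34 FPKM in the Cancer-labelled library and 11 to 26.1 FPKM in vehicle libraries. Of the 6 neutrophil markers, 3 were lowest in the Cancer-labelled library and 0 highest, where 1016 of all 27810 listed genes were lowest. The 4 tested had a median log2 difference of -1.11, against 0.25 over all tested genes, and 1 of them was higher. Ly6g, which defines mouse neutrophils, was at 0 in every library but MSC replicate 0 (0.0618 FPKM). B cell markers summed to 0.386 to 2.18, 1.61 and 1.64 to 1.68 FPKM in that order, and none reached the filter. Macrophage markers summed to 20.3 to 72.2, 51.4 and 33.6 to 86.6 FPKM and endothelial markers to 6.73 to 42.6, 22.6 and 10.9 to 29.9 FPKM in that order, with 0 of 6 called in each list.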

How the data were processed

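The authors deposited 1 table of FPKM values with a column for each of the 7 libraries, per the file headers. StringTie 2.1.6, HISAT2 2.2.1, FastQC 0.11.9 and cutadapt 1.9, with builds GRCm38 and mm10, are named in the submitters' processing notes. StringTie shares reads among overlapping transcripts, and its FPKM is a share of a library, so abundant transcripts lower all others. Most low values were not whole multiples of any trial step of 1 read: at best 19.9% to 21.1% came out whole within 0.05. The best of many trial steps was kept and the share expected without steps was not estimated. A partial signal of steps was therefore not tested.

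GENCODE M21 gave gene types and overlaps; 99.8% of identifiers matched it, and 89.9% of those had the deposited start and end. Values were tested as log2(FPKM + 1) with limma 3.58.1 (trend; R 4.3.3) and Benjamini-Hochberg adjustment over all genes. The filter was 1 FPKM in at least 3 libraries of the fit, or in the Cancer-labelled library where it was fitted. That library was compared in a 3-group fit over 7 libraries. Exact two-sided permutation tests compared 3 MSC with 3 vehicle libraries. The fits were also tested on simulated data. Tables and figures used numpy 2.4.6, pandas 2.3.3 and matplotlib 3.10.9.

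The markers and the 17 gene lists (8 of cell types, 9 of pathways) were chosen with earlier results of these data known. The text names all 7 markers, up to 4 genes of lowest p past the threshold from a list (the 2 of highest mean where none passed, given where a marker's result turns on them) and the 2 genes most like each marker. Epcam, Sox9, Tspan8, Acta2, Reln, Lin28a, Lin28b, Igf2bp1, Igf2bp3, Dlk1, Mki67, Muc2, Muc13, Casc4, Zhx2, Zbtb20 and Ly6g were named after their values were seen. Cyp3a16 and Muc5b were not analysed here, and Golm2 is listed under its older symbol Casc4. A gene that the rule names is not reported here. Alternatives covered the pseudocount, filter, scaling, limma settings, removal of each library and the place of the Cancer-labelled one.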

Additional observations from a re-analysis of the deposited data

How the results depend on the processing

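In MSC against vehicle livers, 0 markers were called under all 19 alternatives. The count of all genes called there was 2, ranged from 1 to 8 when 1 library was left out, and was 1 when vehicle replicates included the Cancer-labelled one and 1 when MSC replicate 0 and vehicle replicate 1 were both dropped. The H19 difference of 0.37 ranged from -0.12 to 1.00 when 1 library was left out (-0.06 without vehicle replicate 4). Counting the Cancer-labelled library as vehicle gave -0.29 for H19 and -0.33 for Tff3. In the Cancer-labelled library 2 markers were called. The count was 1 with a pseudocount of 0.1, 1 with no filter on low values, 1 with the filter on the other 6 libraries alone and 4 when MSC replicate 0 and vehicle replicate 1 were both dropped, and ranged from 1 to 3 when 1 library was left out. The number of all genes called, 511, was 13 with a pseudocount of 0.1, 838 with a pseudocount of 5, 1035 with no filter, 80 with a filter of 5 FPKM, 316 as TPM, 290 after quantile normalization, 778 against all 6 other libraries, 17 with the filter on the other 6 libraries alone and 1032 when those replicates were both dropped; it ranged from 267 to 631 when 1 library was left out. The cause was not tested. Golm1 was called with a pseudocount of 5 (limma adjusted p = 0.0404), without MSC replicate 0 (0.0185) and in a fit on vehicle and Cancer-labelled libraries alone (0.0334); it enters the test only through the library in which it is high, and the last 2 fits leave out its second-highest library, so these calls are no support. Dropping the 2 libraries together and filtering on the other 6 libraries were chosen after seeing the data. No paired analysis was made because the labels give no pairs of MSC and vehicle libraries. Afp, Gpc3 and Igf2 were tested only with no filter on low values, where limma's adjusted p was 0.880, 0.941 and 0.763 for the Cancer-labelled library and 0.938, 0.940 and 0.938 for MSC, each against vehicle. The depth is unknown, and the Cancer-labelled group is 1 library.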
